A study of Mus musculus with 17 samples.

Results

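The 6 genes described here mark macrophages of the splenic marginal zone, and were followed through 17 RNA sequencing libraries of mouse spleen: Marco, Cd209b, Siglec1, Nr1h3, Cd5l and Timd4. They were taken by name from the deposited table of normalised CPM, read counts scaled to library size, where each had 1 line. They are 6 of the 38340 genes with a usable name and 6 of the 14012 genes that passed the filter on low values, so no member was lost to it. Whole spleens were compared after an intravenous injection of an RNA agent: SLR10, SLR14, poly(I:C) or pppNS, with 3 libraries each. The controls were 2 libraries from mice given jetPEI vehicle, a polymer carrier for nucleic acids, and 3 libraries from untreated (naïve) mice. The strain is labelled CB57BL/6NCrl throughout, with no genetic change named in any group. The protocol text gives 25 µg of RNA in 200 µl for each mouse, with the SLRs carried in in vivo-jetPEI at an N/P ratio of 8. It does not say separately how poly(I:C) and pppNS were carried, nor the time after injection or the age of the mice. The series title names RIG-I, a cytosolic sensor of viral RNA, as the receptor under study, and poly(I:C) is a double-stranded RNA polymer in wide use as a mimic of viral RNA.

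The marginal zone lies between the white pulp of the spleen, where lymphocytes gather, and the blood-filtering red pulp. Macrophages stationed there meet blood-borne particles first. An outer population carries MARCO, a scavenger receptor that binds bacteria, and CD209b (SIGN-R1), a C-type lectin that binds microbial polysaccharides. An inner population, the metallophilic macrophages, carries Siglec1 (CD169, sialoadhesin), a lectin for sialic acid. Nr1h3 encodes LXRα, a nuclear receptor for oxysterols on which these macrophages depend. Cd5l encodes a secreted scavenger-like protein (AIM) that is an LXR target and protects macrophages from apoptosis, and Timd4 encodes TIM-4, a receptor for phosphatidylserine on dying cells. Several of these genes are also known in red pulp macrophages or in Kupffer cells of the liver. In a whole spleen, fewer cells of a type and less RNA per cell cannot be told apart.

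The genes lie on separate loci of GRCm38 (GENCODE vM21, protein coding, whole gene from first to last exon). Marco is at chr1:120474538-120505024 (minus strand), Cd209b at chr8:3917655-3926844 (minus), Siglec1 at chr2:131069220-131086765 (minus), Nr1h3 at chr2:91184061-91202834 (minus), Cd5l at chr3:87357881-87371073 (plus) and Timd4 at chr11:46810800-46844332 (plus). Exons of Nr1h3 share 34 bases, 1.35% of their length, with Gm13783 on the same strand. The other 5 share no exon base with another gene.

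Cd209b and Cd5l were the members that fell against vehicle with each of SLR10, SLR14 and poly(I:C), so their promoters are shown. Each runs from 250 bases before to 50 bases after the RefSeq start site (GRCm38.p6), 5′ to 3′ on the gene's strand. The Cd209b window is chr8:3926792-3927091 (minus) and the Cd5l window is chr3:87357631-87357930 (plus). Capitals mark a match to the core motif of PU.1, a macrophage transcription factor.
Cd209b: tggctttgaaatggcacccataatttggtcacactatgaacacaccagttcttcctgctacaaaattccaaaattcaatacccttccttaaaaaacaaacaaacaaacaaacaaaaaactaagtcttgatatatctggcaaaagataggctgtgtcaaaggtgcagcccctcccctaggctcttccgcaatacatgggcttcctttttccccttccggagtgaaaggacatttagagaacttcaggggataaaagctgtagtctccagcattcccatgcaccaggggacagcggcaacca
Cd5l: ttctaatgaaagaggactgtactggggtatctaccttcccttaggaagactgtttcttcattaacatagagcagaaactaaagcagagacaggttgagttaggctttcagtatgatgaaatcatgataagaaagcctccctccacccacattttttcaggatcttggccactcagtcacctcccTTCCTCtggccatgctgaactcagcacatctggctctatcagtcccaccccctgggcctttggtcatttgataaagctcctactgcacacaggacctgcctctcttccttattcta
RefSeq promoters were at hand for 5 of the 6 members. On both strands, they were searched for an interferon-stimulated response element (GAAA repeated after 2 bases), a STAT site (TTCNNNGAA), the PU.1 core (GAGGAA), a direct repeat bound by LXR (AGGTCA repeated after 4 bases) and an AP-1 site (TGANTCA). The only matches were to PU.1. In Cd5l it reads TTCCTC, the motif on the other strand, at positions -66 to -61 from the start site. Marco had one at -146 to -141 and Nr1h3 one at 10 to 15 from the second of its start sites, while the windows of Cd209b and Timd4 held none. Of all 32851 promoter windows of this length, 28.3% held the PU.1 core, 3.44% the interferon element, 8.3% the STAT site, 7.81% the AP-1 site and 0.0152% the LXR repeat. A match describes these letters only, and these windows were not measured in the libraries.

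The libraries held 26.45 to 42.78 M reads, of which 15.76 to 29.56 M fell on named genes. One read was worth 0.01749 to 0.0431 CPM, and 3 reads 0.05248 to 0.1293 CPM, so every member was far above that floor in every library. The lowest count behind a member was 31 reads (Cd209b). Levels of 10 interferon-response genes, such as Cxcl10 and Irf7, summed to 362 to 454 CPM in naïve spleens and 478 to 509 CPM in vehicle spleens. Their sum was 12994 to 18835 CPM with SLR10, SLR14 or poly(I:C) and 2779 to 7845 CPM with pppNS, and all 10 rose with each of the 4 agents against vehicle. Tlx1, a transcription factor of splenic stroma, was detected in every library, but it fell with each of the 4 agents against vehicle. It read 24.6 to 27.1 CPM in vehicle spleens and 15.3 to 16.7 CPM in naïve ones. After SLR10 it read 2.46 to 2.56 CPM, after SLR14 1.94 to 3.20 CPM and after poly(I:C) 1.56 to 2.04 CPM. The pppNS libraries read 9.28 to 13.99 CPM. Its log2 changes were -3.13 (SLR10), -3.18 (SLR14), -3.48 (poly(I:C)) and -1.23 (pppNS). Clec4f, a Kupffer cell marker, did not exceed 0.0360 CPM, and pancreas enzymes did not exceed 0.345 CPM apart from 26.5 CPM in naïve replicate 3. Transcripts of 10 erythroid genes varied widely: 73543 CPM in pppNS replicate 3, 39076 and 20332 CPM in poly(I:C) replicates 2 and 3, 31808 CPM in SLR14 replicate 2, and 3022 to 12750 CPM in the other libraries.

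Per kilobase of exon, the members differed in level in naïve spleens by an order of magnitude. The mean was 51.3 CPM per kb for Marco, 42.2 for Cd5l, 18.7 for Timd4, 16.95 for Nr1h3, 4.95 for Cd209b and 3.88 for Siglec1. Neighbours in this order overlapped in pairs: Marco (SD 14.1) with Cd5l (SD 4.84), Timd4 (SD 3.64) with Nr1h3 (SD 1.31), and Cd209b (SD 1.66) with Siglec1 (SD 2.07), n = 3 each. Libraries of one pair did not overlap with those of the next. In the other groups Cd209b had the lowest mean, down to 0.571 CPM per kb with poly(I:C), and Marco had the highest in all. With SLR10 and SLR14, the mean of Cd5l (7.89 and 10.7 CPM per kb) stood below those of Timd4 (13 and 14.97) and Nr1h3 (11.4 and 12.4). The SLR10 libraries of Cd5l (7.30 to 8.21) lay below those of both genes. With SLR14 the libraries overlapped, at 7.91 to 14.2 for Cd5l, 10.7 to 15.4 for Nr1h3 and 12.98 to 16.6 for Timd4. Over the 17 libraries, the highest CPM exceeded the lowest by 12.2 times for Cd209b, 9.27 for Marco, 8.37 for Cd5l, 5.65 for Siglec1, 4.59 for Nr1h3 and 2.22 for Timd4.

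**Figure D1:**
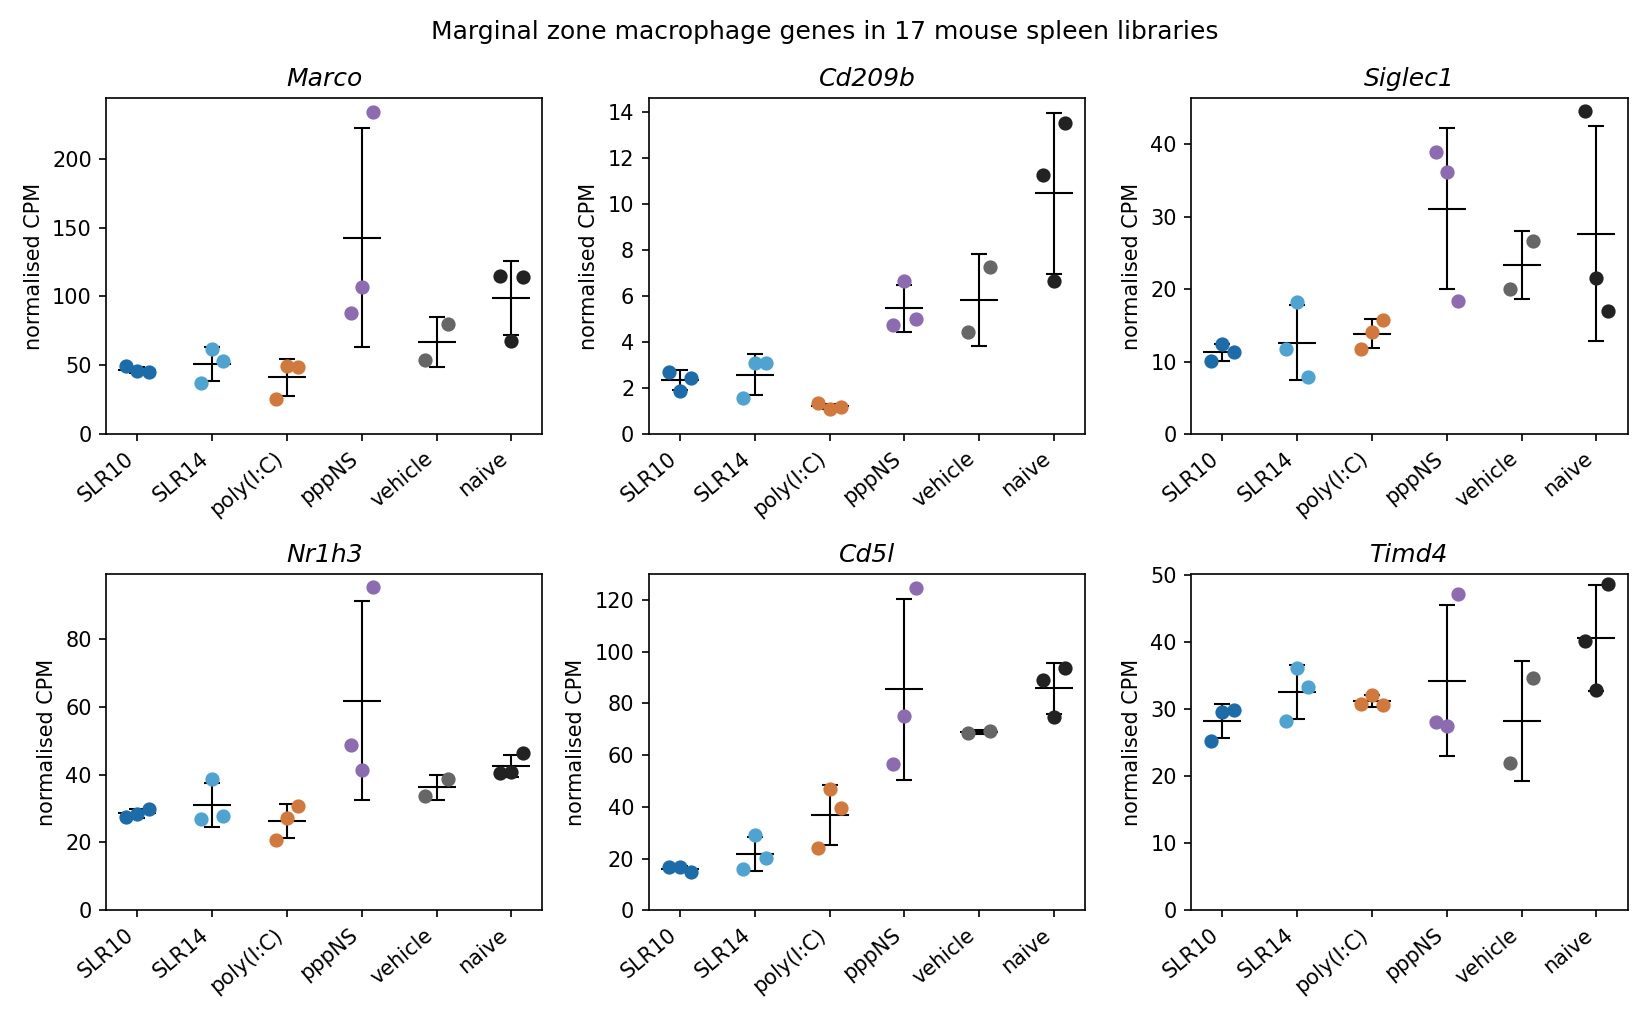
Normalised CPM (vertical axes, from 0) of the 6 members in each library (points), with group mean (bar) and SD (whiskers), for 3 libraries per group and 2 for vehicle. Cd209b and Cd5l lie below both vehicle libraries in all 9 libraries given SLR10, SLR14 or poly(I:C), while Timd4 overlaps with vehicle in every group.

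Cd5l, the secreted LXR target, changed most with the SLRs. Its CPM was 68.4 and 69.5 in the vehicle libraries and 89.03, 74.9 and 93.9 in the naïve ones. It was 16.7, 16.6 and 14.9 with SLR10, and 16.1, 28.9 and 20.4 with SLR14. With poly(I:C) it was 24.05, 46.7 and 39.5. Every one of these 9 libraries lay below every control library. With pppNS it was 56.6, 75.1 and 124.5, which overlaps the controls. Changes are given as log2 ratios on the log2(CPM + 0.5) scale with their standard error. They come from a limma fit over all 17 libraries and all 14012 genes, with p-values adjusted by Benjamini-Hochberg over those genes. Ratios on the linear scale are ratios of CPM + 0.5, which makes changes smaller where CPM is low. Against vehicle, Cd5l fell by 2.07 ± 0.32 with SLR10 (adjusted p = 0.000147), which leaves 0.238 of the vehicle level (95% interval 0.148 to 0.383). It fell by 1.68 ± 0.32 with SLR14 (adjusted p = 0.000812) and by 0.95 ± 0.32 with poly(I:C) (adjusted p = 0.0315). The poly(I:C) call was lost without poly(I:C) replicate 1 (-0.68, adjusted p = 0.104), without vehicle replicate 1 (-0.96, adjusted p = 0.124) and without vehicle replicate 2 (-0.94, adjusted p = 0.135).

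Cd209b, the polysaccharide-binding lectin, was the other member that fell. Vehicle libraries read 4.42 and 7.25 CPM and naïve libraries 11.3, 6.65 and 13.5 CPM. With SLR10 it read 2.71, 1.86 and 2.45 CPM, and with SLR14 1.57, 3.08 and 3.10 CPM. It was lowest with poly(I:C), at 1.33, 1.10 and 1.19 CPM, and its SD of 0.112 there was small. All 9 libraries were below all 5 control libraries. With pppNS it read 4.73, 6.64 and 5.01 CPM, within the range of the vehicle libraries. Cd209b fell by 1.13 ± 0.31 with SLR10 (adjusted p = 0.00985, limma) and by 1.05 ± 0.31 with SLR14 (adjusted p = 0.0155). With poly(I:C) it fell by 1.86 ± 0.31 (adjusted p = 0.000336), to 0.276 of vehicle (95% interval 0.174 to 0.439). Without vehicle replicate 2 the SLR10 and SLR14 calls of the limma fit were lost (-0.80, adjusted p = 0.149, and -0.72, adjusted p = 0.202). The SLR14 call was also lost without SLR14 replicate 1 (-0.78, adjusted p = 0.0669). Its change with pppNS was -0.06 ± 0.31 (adjusted p = 0.904).

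Marco, the scavenger receptor, read 54.1 and 79.7 CPM with vehicle and 114.7, 67.4 and 114.3 CPM in naïve spleens. It read 49.2, 45.8 and 44.9 CPM with SLR10, 37.2, 62.0 and 52.9 CPM with SLR14, and 25.2, 49.4 and 48.5 CPM with poly(I:C). The SLR10 and poly(I:C) libraries lay below both vehicle libraries, and SLR14 replicate 2 lay between them. None of these changes passed the test against vehicle: -0.49 with SLR10 (adjusted p = 0.377, limma), -0.40 with SLR14 (0.485) and -0.73 with poly(I:C) (0.176). Of 20 alternatives, Marco passed in 4 with SLR10, 3 with SLR14 and 4 with poly(I:C). With only the groups compared it passed with SLR10 (-0.49, adjusted p = 0.0151, limma). With pppNS, Marco read 87.5, 106.6 and 233.7 CPM, all above vehicle, for a log2 difference of 0.98 ± 0.40 (adjusted p = 0.179). Replicate 3, the library with most erythroid transcripts, held the highest value, and without it the difference was 0.55. The part of those transcripts in the result was not tested.

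Siglec1, the sialic acid lectin of metallophilic macrophages, read 20.06 and 26.6 CPM with vehicle and 44.6, 21.6 and 16.9 CPM in naïve spleens. SLR10 libraries read 10.05, 12.5 and 11.3 CPM, SLR14 libraries 11.7, 18.2 and 7.89 CPM, and poly(I:C) libraries 11.8, 14.04 and 15.8 CPM. All 9 were below both vehicle libraries, and SLR14 replicate 2 was above 1 naïve library. The log2 differences from vehicle were -1.01 ± 0.41 (SLR10, adjusted p = 0.0638, limma), -0.93 (SLR14, adjusted p = 0.0890) and -0.73 (poly(I:C), adjusted p = 0.186), none past the threshold of 0.05. With SLR10 it passed on the recovered reads by edgeR (-1.03, adjusted p = 0.0460) and by DESeq2 (-1.06, adjusted p = 0.0279), and in 7 of 20 alternatives in all, beside 6 with SLR14 and 3 with poly(I:C). Without SLR14 replicate 2 the SLR14 difference was -1.22 (adjusted p = 0.0338). With pppNS, Siglec1 read 38.9, 36.1 and 18.3 CPM, and here replicate 3 was the lowest of the group. Its log2 difference with pppNS was 0.35 ± 0.41 (adjusted p = 0.580, limma), and the main fit called it higher with no agent. In 1 of 21 alternatives, only the groups compared without pppNS replicate 3, it was called higher with pppNS (0.69, adjusted p = 0.0486, limma). Siglec1 can also be induced by interferon in monocytes, and such induction was not tested.

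Nr1h3, the LXRα gene, read 33.7 and 38.8 CPM with vehicle and 40.6, 40.8 and 46.4 CPM in naïve spleens. It read 27.4, 28.5 and 30.03 CPM with SLR10, 26.97, 38.7 and 27.8 CPM with SLR14, and 20.8, 27.3 and 30.7 CPM with poly(I:C). The SLR10 and poly(I:C) libraries lay below vehicle, by log2 differences of -0.33 (adjusted p = 0.400, limma) and -0.47 (0.218). The SLR14 libraries overlapped with vehicle, at -0.23 (adjusted p = 0.575, limma). Of 20 alternatives, Nr1h3 passed in 3 with SLR10, 2 with SLR14 and 5 with poly(I:C). With pppNS it read 48.9, 41.4 and 95.5 CPM, above both vehicle libraries (0.67 ± 0.28, adjusted p = 0.186), and without replicate 3 the difference was 0.31. Timd4, the TIM-4 gene, varied least. Its CPM was 21.9 and 34.6 with vehicle, 25.3, 29.6 and 29.8 with SLR10, 28.2, 36.1 and 33.3 with SLR14, and 30.8, 32.2 and 30.6 with poly(I:C). It was 28.04, 27.4 and 47.3 with pppNS and 40.2, 32.9 and 48.7 in naïve spleens. Its log2 differences from vehicle lay between 0.03 (SLR10) and 0.26 (pppNS), each with overlapping libraries.

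**Figure D2:**
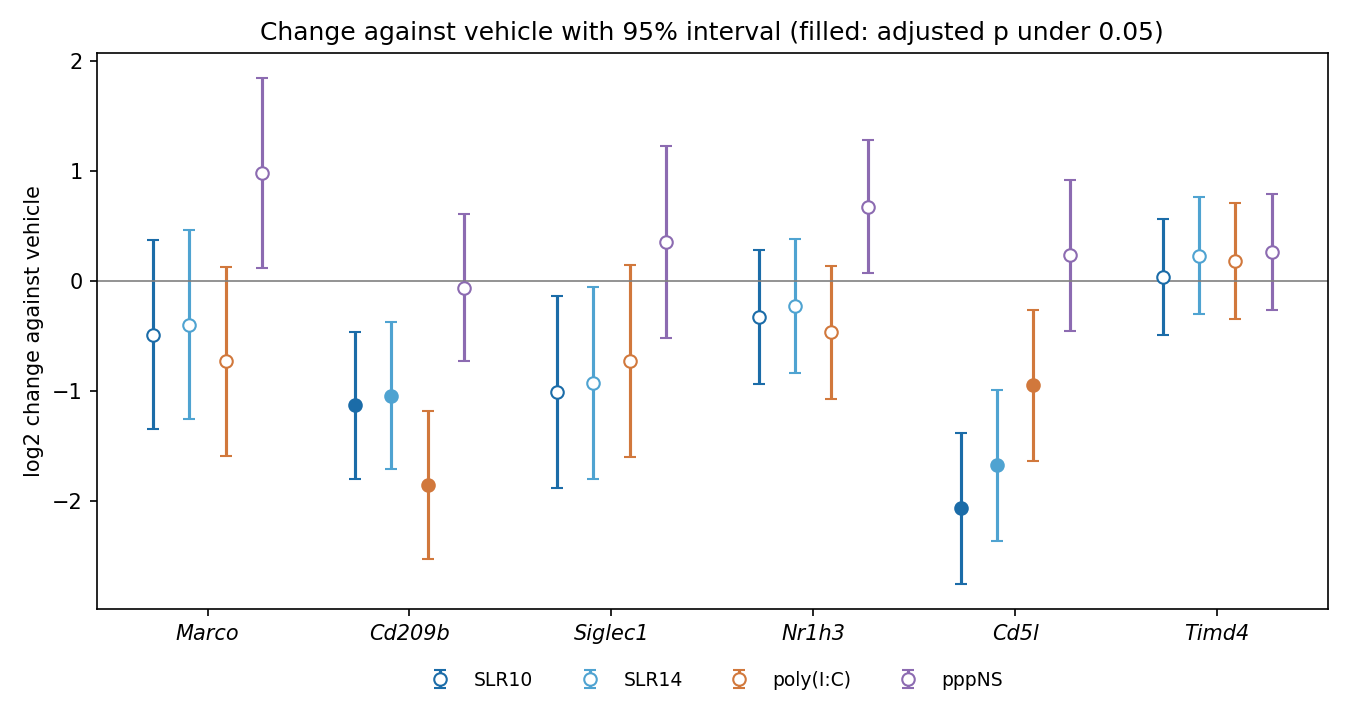
Log2 change against vehicle (vertical axis) with 95% intervals for each member and agent, from the limma fit; filled points have an adjusted p under 0.05. Cd209b and Cd5l are filled for SLR10, SLR14 and poly(I:C), and no point is filled for pppNS.

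Across the list, 2 of 6 members fell and none rose with each of SLR10, SLR14 and poly(I:C), and in each case they were Cd209b and Cd5l. Of all genes tested, 19.2% were lower with SLR10, 19.4% with SLR14 and 17.3% with poly(I:C), and 20.2%, 19.3% and 18.6% were higher. A count of 2 in 6 is thus not far from the background of these broad responses. The members' median log2 change was -0.75, -0.66 and -0.73, beside -0.01, 0.04 and 0.07 over all genes. Groups did not overlap, with the agent lower, for 5 members with SLR10, 3 with SLR14 and 5 with poly(I:C), where 40.6%, 32.8% and 30.4% of all genes were that way. With pppNS no member passed the test, where 4.3% of all genes did in either direction, and 2 members (Marco and Nr1h3) had an unadjusted p below 0.05. The members' median change with pppNS was 0.31. Marco and Nr1h3 did not overlap with vehicle there, being higher, as were 22.9% of all genes. The 4 comparisons share the same 2 vehicle libraries.

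Vehicle and naïve spleens were compared to see what the carrier injection itself did. No member passed the test, where 0.05% of all genes (7 genes) did, 1264 at an unadjusted p under 0.05, and 1 gene by edgeR and 99 by DESeq2 on the recovered reads. All 6 members had a lower mean in vehicle spleens, by a median of -0.42 on the log2 scale. The log2 differences were -0.77 ± 0.31 for Cd209b (adjusted p = 0.519, limma), -0.54 for Marco, -0.53 for Timd4, -0.31 for Cd5l, -0.23 for Nr1h3 and -0.13 for Siglec1. Vehicle libraries lay below naïve ones without overlap for 2 members (Nr1h3 and Cd5l), as for 27.5% of all genes. With 2 vehicle libraries the intervals were wide: 0.368 to 0.929 of the naïve level for Cd209b and 0.377 to 1.25 for Marco.

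More members passed with naïve spleens as the control, which also has 3 libraries in place of 2. Against naïve spleens 4 members were lower with SLR10, where 23.6% of all genes were: Cd5l (-2.38), Cd209b (-1.91), Siglec1 (-1.14, adjusted p = 0.0177, limma) and Marco (-1.03, adjusted p = 0.0275). The same 4 were lower with SLR14 (22.8% of all genes), at -1.99, -1.82, -1.06 and -0.94. With poly(I:C) (21.1% of all genes) the 4 were Cd209b (-2.63), Marco (-1.28), Cd5l (-1.26) and Nr1h3 (-0.70, adjusted p = 0.0347), and Siglec1 (-0.86) had an adjusted p of 0.0681. No member was called with pppNS against naïve spleens, where 10.9% of all genes were called and Cd209b had -0.84 (adjusted p = 0.0718). Timd4 was not called against either control, and its sign depended on the control.

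The scaling of the libraries mattered as well. In the deposited CPM, named genes summed to 471992 to 478148 in vehicle libraries and to 664989 to 794826 in the SLR10, SLR14 and poly(I:C) libraries. Rescaled to the reads in named genes, a choice made after seeing the data, the median log2 change of all genes against vehicle moved to -0.49, -0.50 and -0.52. All members but Timd4 were then called lower with each of the 3 agents, where 34.4%, 36.6% and 37.9% of all genes were. Timd4 was at -0.47, -0.33 and -0.44 and was not called. Taken relative to that shift, Cd5l was at -2.10, -1.74 and -1.05, Cd209b at -1.17, -1.12 and -2.01, and Timd4 at 0.02, 0.17 and 0.08.

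**Figure D3:**
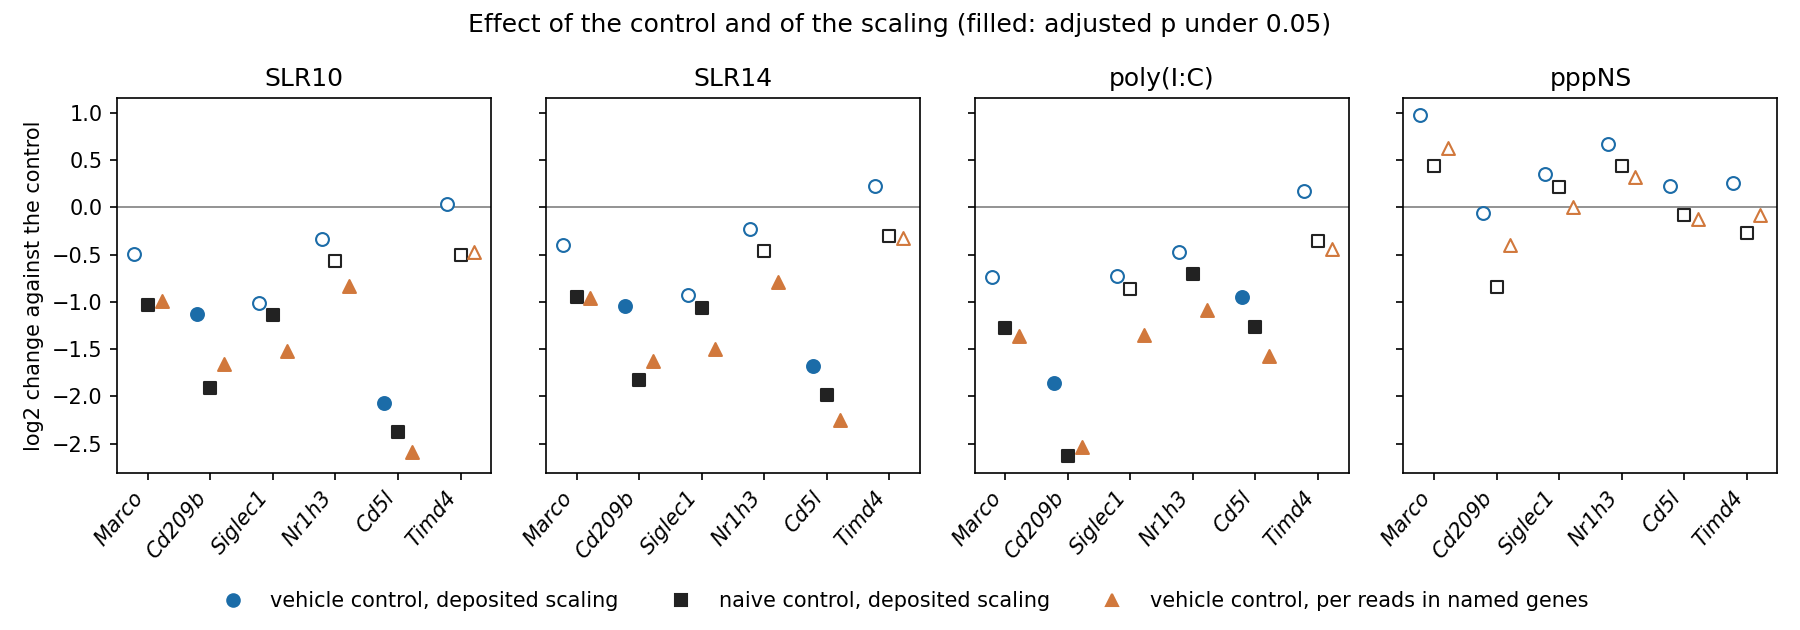
Log2 change of each member (vertical axis) with each agent against vehicle in the deposited scaling (circles), against naïve (squares), and against vehicle after rescaling to reads in named genes (triangles); filled symbols have an adjusted p under 0.05. Cd209b and Cd5l are filled under all 3 choices for SLR10, SLR14 and poly(I:C), and Timd4 under none.

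SLR14 and SLR10, compared at the same stated amount of RNA, did not differ detectably in any member. Of all genes, 0% passed the test in this comparison with limma, and 89 genes were below an unadjusted p of 0.05. On the recovered reads DESeq2 called 1 gene and edgeR 0. The log2 difference was 0.39 for Cd5l, with a 95% interval from -0.22 to 1.01, which is 0.857 to 2.01 times on the linear scale. It was 0.09 for Marco (-0.68 to 0.86), 0.08 for Cd209b (-0.51 to 0.68) and 0.08 for Siglec1 (-0.70 to 0.86). For Nr1h3 it was 0.10 (-0.44 to 0.64) and for Timd4 0.20 (-0.28 to 0.67). Over the 6 members the intervals reached down to between 0.617 and 0.857 times and up to between 1.56 and 2.01 times, so the data do not show that both act alike. The libraries of both groups overlapped for all 6 members, where 4.54% of all genes were higher and 4.51% lower without overlap.

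Between poly(I:C) and the SLRs, the 2 members that fell differed in opposite directions, and neither difference passed the test. Cd209b was higher with the SLRs by 0.77 ± 0.24 (adjusted p = 0.102, limma), or 1.70 times as CPM + 0.5 (95% interval 1.19 to 2.44). On the recovered reads its log2 difference was larger, at 1.08 by edgeR and 1.05 by DESeq2. All 6 SLR libraries exceeded all 3 poly(I:C) libraries, as for 7.63% of all genes. Cd5l was lower with the SLRs by a log2 difference of -0.92 ± 0.25 (adjusted p = 0.0571), or 0.527 times (0.365 to 0.762), and SLR14 replicate 2 (28.9 CPM) overlapped with poly(I:C) replicate 1 (24.05 CPM). Called genes made up 3.51% of all genes in this comparison. By edgeR on the recovered reads Cd5l passed (adjusted p = 0.0475), and by DESeq2 both did (Cd5l 0.00981, Cd209b 0.0177). The other 4 members had log2 differences between -0.24 (Siglec1) and 0.29 (Marco).

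Against pppNS, 5 of 6 members were called lower with the SLRs, all but Timd4, where 22.1% of all genes were called lower. Cd5l was lower by a log2 difference of -2.10 ± 0.25 (adjusted p = 1.98e-05, limma), or 0.232 times (95% interval 0.161 to 0.336). Marco (-1.42 ± 0.31, adjusted p = 0.00231) and Siglec1 (-1.32 ± 0.31, adjusted p = 0.00416) followed. Cd209b (-1.03 ± 0.24, adjusted p = 0.00379) and Nr1h3 (-0.95 ± 0.22, adjusted p = 0.00323) were at 0.491 and 0.517 of the pppNS level. For these 5 members, all 6 SLR libraries lay below all 3 pppNS libraries, as for 15.8% of all genes. Without pppNS replicate 3, the library with most erythroid transcripts, Nr1h3 was at -0.59, Marco at -0.999, Cd5l at -1.80 and Siglec1 at -1.66, and all 5 passed in each of the 23 alternatives tried. Timd4 was at -0.13 ± 0.19 (adjusted p = 0.584). The members' median was -1.17, beside -0.04 over all genes.

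Within a group, 4 members tended to move together from library to library. As deviations of log2(CPM + 0.5) from the group mean over 17 libraries, Marco and Cd5l had a Pearson r of 0.914, Marco and Nr1h3 0.827, Nr1h3 and Cd5l 0.807, and Marco and Timd4 0.792. Nr1h3 and Timd4 had 0.763, and Cd5l and Timd4 had 0.617. Cd209b was less close, with r from 0.060 (Nr1h3) to 0.469 (Timd4). Siglec1 did not follow the 4, with r between -0.244 and 0.080 with the other 5 members. These values share library depth, scaling and tissue sampling, and rest in part on pppNS replicate 3, where Marco, Nr1h3, Cd5l and Timd4 were highest of their group and Siglec1 lowest. SLR14 replicate 2 was the highest of its group for 5 of 6 members, and vehicle replicate 1 was the lower of its pair for 6 of 6. In pppNS replicate 3 and SLR14 replicate 2 the erythroid transcripts were also the highest of their groups, at 73543 CPM beside 9117 and 7949, and 31808 CPM beside 4342 and 5498. Summed red pulp macrophage genes were highest there too, at 1885 CPM in pppNS replicate 3 and 1104 CPM in SLR14 replicate 2. The part of these in the members' values was not tested.

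**Figure D4:**
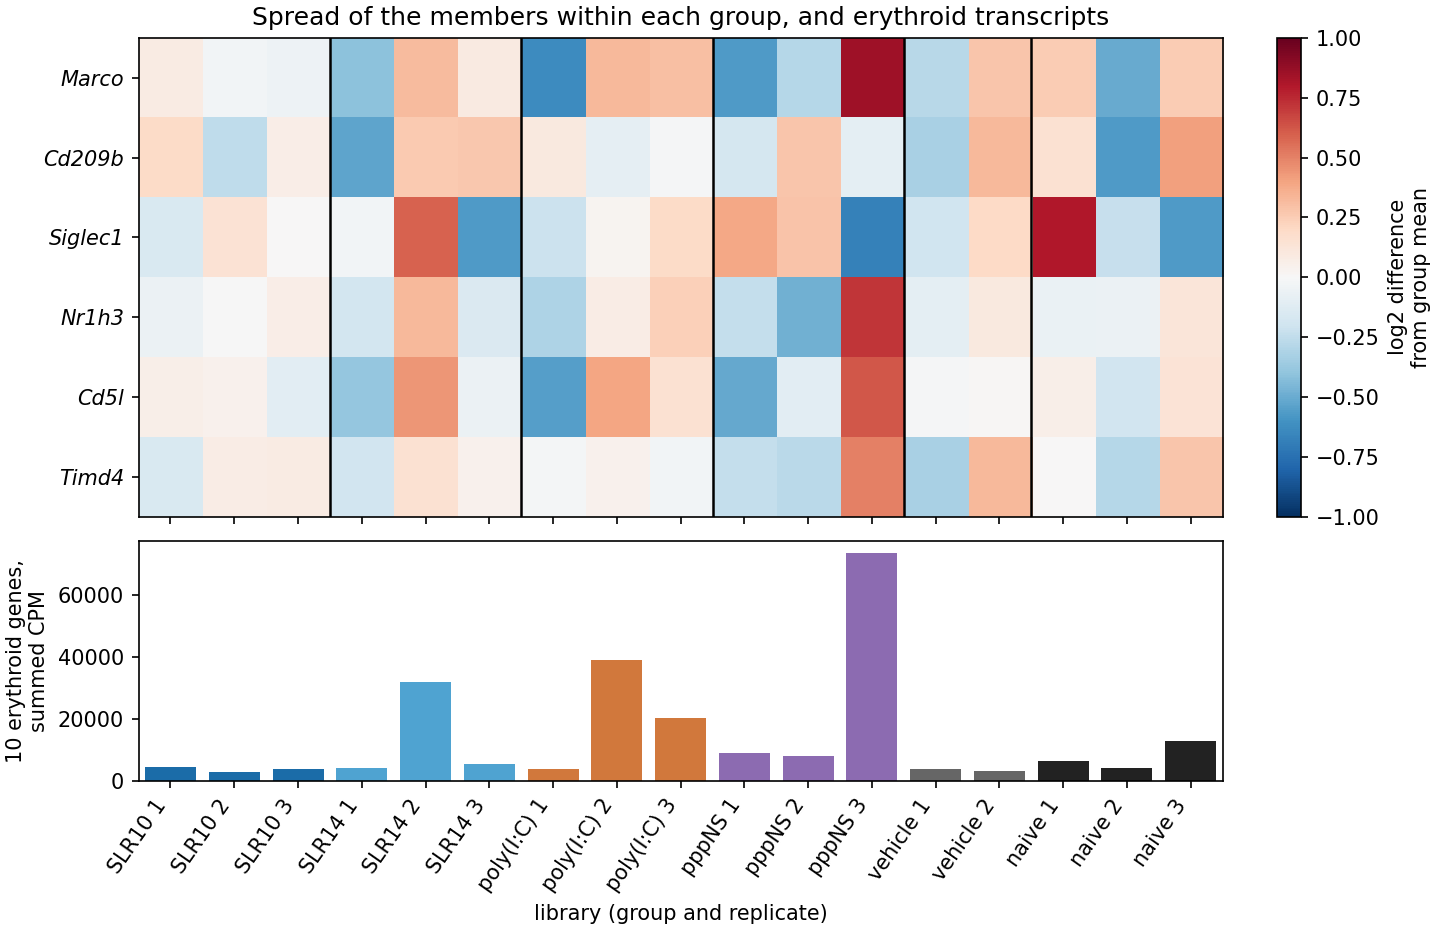
Top, deviation of each member from its group mean in log2(CPM + 0.5) for each library (red higher, blue lower, black lines between groups); bottom, summed CPM of 10 erythroid genes in the same libraries. In pppNS replicate 3, where the erythroid sum is 73543 CPM, Marco, Nr1h3, Cd5l and Timd4 are above their group mean and Siglec1 below it.

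The genes whose levels most resembled each member over the 17 libraries were named by Pearson r of log2(CPM + 0.5), as a description. For Cd5l they were Fuca2 (0.986), Ypel3 (0.982) and Cnpy4 (0.982). Lgmn (0.938), Efemp2 (0.919) and Tmem134 (0.908) were nearest to Nr1h3. Sh2d4a (0.928), Tssc4 (0.915) and Dus2 (0.904) were nearest to Marco, and Dscr3 (0.938), Tmem206 (0.928) and Asb2 (0.925) to Cd209b. Siglec1 was nearest to Tbc1d2b (0.902), Pitpnm1 (0.896) and Cmklr1 (0.891). Timd4 had the weakest likeness, with Trappc6b (0.826), Pilrb1 (0.821) and Ost4 (0.797).

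Relatives of the members were read from the same fit. Of 15 LXR partners and targets, 3 fell and 1 rose with SLR10 and with SLR14, and 2 fell and 1 rose with poly(I:C), where 19.2%, 19.4% and 17.3% of all genes were lower. Their median was -0.38, -0.19 and -0.25, and the counts lower were near the background. Rxra, the RXRα partner of LXRα, went from 35.6 ± 2.43 CPM with vehicle (SD, n = 2) to 5.89 ± 0.591 with SLR10, 6.37 ± 1.16 with SLR14 and 7.38 ± 0.393 with poly(I:C) (n = 3 each), log2 changes of -2.503, -2.41 and -2.20. Scd2, a fatty acid desaturase, fell with the same agents (-2.03, -2.29 and -2.65) and with pppNS (-0.79, adjusted p = 0.0307, limma). Smpdl3a, a phosphodiesterase on this list, fell with SLR10 (-1.02) and SLR14 (-0.93), and was at -0.45 with poly(I:C) (adjusted p = 0.0963, limma). Whether LXR controls it in these spleens was not tested. Nr1h3 itself was not called against vehicle.

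Among 6 other genes of the CD209 family, 3 passed the filter on low values, and 2 of these fell with each of SLR10, SLR14 and poly(I:C). Named after their values were seen, Cd209a, the dendritic cell member, and Cd209d were those 2. Cd209d did not exceed 0.917 CPM with SLR10, 0.819 with SLR14 or 0.875 with poly(I:C), beside 1.55 to 2.01 CPM with vehicle. It thus reached the filter of 1 CPM only in other groups, so the filter partly fixed the count of 2 in 3. Cd209a stood at 6.39 ± 0.0475 CPM (SD, n = 2) in vehicle spleens. The SLR10 and SLR14 groups had 1.16 ± 0.156 and 1.25 ± 0.615 CPM, and the poly(I:C) and pppNS groups 2.02 ± 0.912 and 1.05 ± 0.138 CPM (n = 3 each). Its change of -2.16 with pppNS (adjusted p = 0.000905, limma) stands beside -0.06 for Cd209b there. Whether these genes differ in their change was not tested. Of 11 other scavenger receptors, 3 fell and 2 rose with SLR10, 4 fell and 2 rose with SLR14, and 3 fell and 1 rose with poly(I:C). Mrc1, the mannose receptor, fell with SLR10, SLR14 and poly(I:C) (-1.86, -1.53 and -0.63), as did Stab2, a hyaluronan receptor of sinus endothelium (-1.38, -1.29 and -1.001). Scarb2, a lysosomal membrane protein, rose by 0.70, 0.78 and 0.65. None of the 11 was called with pppNS, where 4.3% of all genes were. With SLR10, SLR14 and poly(I:C), 19.2%, 19.4% and 17.3% of all genes were lower, and 20.2%, 19.3% and 18.6% were higher.

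Of 19 genes for uptake of apoptotic cells, 5 fell and 3 rose with SLR10 and with SLR14, and 3 fell and 4 rose with poly(I:C). Among all genes, 19.2%, 19.4% and 17.3% were lower and 20.2%, 19.3% and 18.6% higher with these agents, so the counts were near the background. With pppNS 2 of the 19 fell, where 4.3% of all genes were called in either direction. Havcr2, the TIM-3 gene and a relative of Timd4, fell with all 4 agents (-1.83, -1.78, -2.44 and -1.34 for SLR10, SLR14, poly(I:C) and pppNS), as did Itgb5, an integrin subunit (-1.61, -1.55, -1.25 and -0.91). Tgm2, a transglutaminase, rose by 1.96, 1.93 and 1.37 with SLR10, SLR14 and poly(I:C). Of 6 other Siglecs tested, 3 fell with each SLR and 2 after poly(I:C), and pppNS gave no call. Siglecg, of B cells, fell with the first 3 agents (-1.01, -1.13 and -1.04), as did Siglech, of plasmacytoid dendritic cells (-0.73, -0.74 and -0.76). Siglece, of myeloid cells, was not called (-0.24, -0.24 and 0.18).

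Of 14 genes listed for support of the marginal zone, signals and receptors, 6 rose and 1 fell with each of SLR10, SLR14 and poly(I:C). Among all genes 20.2%, 19.3% and 18.6% were higher and 19.2%, 19.4% and 17.3% lower. With pppNS 1 rose, where 4.3% of all genes were called in either direction. Whether support of the marginal zone changed was not tested. Tnf, a cytokine, rose by 3.94, 3.82, 3.69 and 2.54 with the 4 agents. Csf1, the macrophage growth factor, rose by 2.14, 2.03 and 2.05 with the first 3 and was at 0.73 with pppNS (adjusted p = 0.127, limma). Csf1r, its receptor on macrophages, fell with them (-1.52, -1.38 and -0.87), from 227 CPM with vehicle to 78.7, 87.6 and 125 CPM. The median of the 14 genes was 0.68, 0.42, 0.28 and 0.22.

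Genes of neighbouring cell types moved in the same spleens. The counts below stand beside 19.2%, 19.4% and 17.3% of all genes lower with SLR10, SLR14 and poly(I:C). With pppNS 4.3% of all genes were called in either direction. Of 9 red pulp macrophage genes, 6 fell with each SLR, 3 after poly(I:C) and 1 after pppNS, and none rose. Their median was -1.11, -0.97, -0.62 and 0.01. Slc40a1, the iron exporter ferroportin, fell with all 4 agents (-3.76, -3.49, -2.78 and -1.21), and Treml4, a red pulp macrophage receptor, with the first 3 (-2.28, -2.31 and -1.64). Cd163, the haemoglobin scavenger receptor, fell with SLR10 (-2.62) and SLR14 (-1.99). Summed over the 9 genes, red pulp levels were 1141 to 1361 CPM in vehicle spleens, 747 to 850 in the SLR10 group, 748 to 1104 in the SLR14 group, 849 to 1112 after poly(I:C) and 1124 to 1885 after pppNS. Of 8 marginal zone B cell genes, 4 fell after SLR10, 5 after SLR14, 4 after poly(I:C) and none after pppNS. Cr2, a complement receptor of these B cells, fell with SLR10, SLR14 and poly(I:C) (-1.67, -1.91 and -2.36), as did Cd1d1, a lipid-presenting molecule (-1.002, -1.09 and -0.92).

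Other cells of the spleen were read in the same way. With SLR10, SLR14 and poly(I:C), 19.2%, 19.4% and 17.3% of all genes were lower, and 20.2%, 19.3% and 18.6% were higher. With pppNS 4.3% were called in either direction. Of 7 dendritic cell genes, 6, 5 and 7 fell with SLR10, SLR14 and poly(I:C) and 1 with pppNS, led by Xcr1. Of 6 monocyte genes, 3 fell with each of the first 3 agents and 2 with pppNS, among them Ccr2, while 4 of the 6 had a log2 change below 0 with each agent. Summed over the 6 genes, levels with SLR10 (119.8 to 146.3 CPM) were below vehicle (157.6 to 170.6 CPM) and overlapped with naïve spleens (121.7 to 136.9 CPM). Of 7 neutrophil genes, 5, 7 and 7 rose with the first 3 agents and 5 with pppNS. Of 6 T cell genes 3 fell with each of the first 3 agents, and of 6 B cell genes 1, 2 and 3 fell, so the B cell count with SLR10 was near the 19.2% of all genes that were lower. Of 10 erythroid genes, 1 rose with poly(I:C) and none was called with SLR10, SLR14 or pppNS. The part of these marker levels in the members' values was not tested.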

How the data were processed

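Total RNA of whole spleen was sequenced from stranded mRNA libraries made with 500 ng of RNA, per the labels' protocols. The submitters' processing notes name FastQC, TopHat2 2.0.6, SAMtools 1.4, HTSeq and edgeR with GRCm38 (mm10); the annotation version, the strand setting and each tool's role are not given in the sources used here. The deposited table, by the authors, holds 1 normalised signal (edgeR CPM) for each gene and library. Every value lay within 0.01 of a whole read after division by the worth of 1 read (100% of values), so reads could be recovered. The 5 lines without a name, 699 lines named "#N/D", 27 names turned into numbers and 113 extra lines of 87 repeated names were left out; lines without a gene name held 28.14% to 46.07% of the reads. No column of another series was found.

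The log2(CPM + 0.5) values of the genes that reached 1 CPM in 2 or more libraries were fitted with limma 3.58.1 in R 4.3.3, 1 coefficient per group over 17 libraries, with a variance trend. The threshold was an adjusted p of 0.05 within each of 8 comparisons. edgeR 4.0.16 and DESeq2 1.42.0 were run on the recovered reads as alternatives. Intervals from the fit cover the spread between libraries. The series text calls the samples of a group triplicates or duplicates without saying that each is from its own mouse; p-values then measure only the spread between these libraries, which may be technical. Per-kilobase levels use the union of GENCODE vM21 exons, promoters are from RefSeq.

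Members and gene lists were chosen with earlier results of these data known. Named in the text are all members, of each list at most 3 genes whose mean reached 5 CPM, by the smallest adjusted p for SLR10 against vehicle, and the 3 genes nearest to each member. Marker genes read as checks of the tissue and of the response, and Cd209a and Cd209d, are named outside this rule. Alternatives covered the pseudocount, the filter, the scaling, library weights, the control, the libraries fitted, the replicate number as a block and leaving out each library.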

Additional observations from a re-analysis of the deposited data

How the results depend on the processing

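Of 978 member values recomputed under alternatives, 867 kept direction and side of the threshold, 47 newly passed it, 9 no longer passed it and 55 changed sign; no called value changed sign, and the cause of these moves was not tested. Cd5l with SLR10 and with SLR14 passed in 20 of 20 alternatives, Cd5l with poly(I:C) in 16, and Cd209b in 19, 16 and 20 with SLR10, SLR14 and poly(I:C). The number of members past the threshold against vehicle (2 with SLR10, SLR14 and poly(I:C), 0 with pppNS) was 1 (SLR14) and 4 (poly(I:C)) with quantile scaling. It was 5, 5 and 5 with scaling to reads in named genes, 5 (SLR10) and 1 (SLR14) with only the groups compared, and 5, 5, 3 and 1 (pppNS) with library weights, which gave naïve replicate 2 a weight of 73.5. It was 4, 4 and 4 with naïve as the control, 3, 3 and 5 with naïve and vehicle together, and 3 (SLR10) with edgeR and with DESeq2. No count is given for the fit without SLR14 replicate 2 and poly(I:C) replicates 2 and 3, which kept 1 poly(I:C) library. With only the groups compared and pppNS replicate 3 left out the number of members was 1 for pppNS (Siglec1, which was higher). Leaving out 1 library gave 1 to 2 with SLR10, 1 to 3 with SLR14, 1 to 2 with poly(I:C) and 0 with pppNS. For the SLRs against poly(I:C) (0) it was 1 with named-gene scaling, library weights or edgeR, 2 with DESeq2, and 0 to 1 without 1 library. It was 5 throughout against pppNS, and 0 throughout for vehicle against naïve and SLR14 against SLR10.

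Changed signs concerned uncalled values. Timd4 against vehicle with SLR10, SLR14 and poly(I:C) was -0.47, -0.33 and -0.44 with named-gene scaling, -0.50, -0.30 and -0.36 against naïve, and -0.29, -0.0914 and -0.14 against both controls. With pppNS it was -0.0847, -0.27 and -0.0575 in the same order of settings. Quantile scaling gave -0.13 (SLR10) and -0.0817 (poly(I:C)), and DESeq2 gave -0.0122 (SLR10). For the SLRs against poly(I:C), Timd4 was 0.0251 (quantile), 0.0408 (named genes) and 0.0256 (edgeR), and against pppNS 0.0805 (weights) and 0.12 (only the groups compared, without pppNS replicate 3). Cd5l with pppNS was -0.0655 (quantile), -0.12 (named genes), -0.0792 against naïve and -0.0789 with only the groups compared and without pppNS replicate 3. Library weights gave 0.12 for Cd209b with pppNS and 0.0909 for Siglec1 in vehicle against naïve. For SLR14 against SLR10, weights gave -0.11 (Marco), -0.12 (Cd209b), -0.0931 (Siglec1) and -0.0433 (Nr1h3), and leaving out SLR14 replicate 2 with poly(I:C) replicates 2 and 3 gave -0.0696, -0.0462, -0.21 and -0.064.

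Without 1 library, Timd4 ranged from -0.29 to 0.35 (SLR10), -0.0952 to 0.55 (SLR14), -0.15 to 0.50 (poly(I:C)) and -0.0613 to 0.58 (pppNS) against vehicle, from -0.0851 to 0.00254 for the SLRs against poly(I:C) and from -0.27 to 0.12 against pppNS. With pppNS, Cd209b ranged from -0.39 to 0.26 and Cd5l from -0.0789 to 0.49. Siglec1 in vehicle against naïve ranged from -0.42 to 0.27. SLR14 against SLR10 ranged from -0.0696 to 0.29 (Marco), -0.0514 to 0.35 (Cd209b), -0.21 to 0.37 (Siglec1) and -0.064 to 0.19 (Nr1h3), and Marco for the SLRs against poly(I:C) from -0.0261 to 0.45.

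Whether the replicate numbers pair the libraries could not be decided, because deviations within a group sum to 0 and their correlations are tied. Deviations of same-numbered libraries had a median correlation of 0.0299 over 40 pairs (-0.52 to 0.80), with 15 over 0.1. The median over 80 other pairs was -0.0276 (-0.88 to 0.72), with 27 over 0.1. With the replicate block, Timd4 with SLR10 was -0.0569 and 1 member (Cd5l, adjusted p = 0.0422, limma) passed for the SLRs against poly(I:C). Counts of called genes moved by over 1.5 times in these cases. SLR10 (5520) had 9904 with only the groups compared and 9987 with weights, SLR14 (5422) had 9222 with weights, and poly(I:C) (5030) had 7734 with weights and 3262 or 3300 without vehicle replicate 1 or 2. For pppNS (603) the range was 0 (only the groups compared) to 4102 (weights), and for vehicle against naïve (7) 0 to 8022 (weights). For the SLRs against poly(I:C) (492) it was 174 (without poly(I:C) replicate 3) to 2730 (weights). The fit without SLR14 replicate 2 and poly(I:C) replicates 2 and 3 is left out here, as it kept 1 poly(I:C) library. That fit also kept pppNS replicate 3, the library with most erythroid transcripts. The SLRs against pppNS (6286) had 9446 with weights. The 2 vehicle libraries, and 31 to 510 reads for Cd209b, limit the precision.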
